A study of Mus musculus with 8 samples.

Results

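Fli1 and Etv6 encode transcription factors of the ETS family, which share a DNA-binding domain that reads sequences around a GGAA core. FLI1 acts with RUNX1 and TAL1 in blood stem cells and is required for platelet-forming megakaryocytes. ETV6, also known as TEL, is a repressor needed to keep stem cells in adult bone marrow and for megakaryocyte maturation. Accessible chromatin marks promoters and enhancers, where such factors can bind.

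The data are ATAC-seq counts, in which the Tn5 transposase cuts open DNA, from multipotent progenitors of the MPP2 type sorted from adult mouse bone marrow. All cells were LSK (lineage-negative, Sca1-positive, Kit-positive), Flt3-negative, CD150-positive and CD48-positive, from C57BL/6 mice of 8 to 12 weeks. The 4 Vwf+Gata1+ libraries and the 4 Vwf-Gata1+ libraries, of 500 cells each, share the Gata1+ gate and differ in Vwf, which encodes von Willebrand factor, a platelet adhesion protein. The labels do not say how Vwf and Gata1 were detected, whether animals were pooled, or whether each replicate is its own animal. The p-values therefore set the difference between the gates against how much these libraries vary, and some of that variation may be technical. The question asked here is whether chromatin at Fli1 and Etv6 differs between the gates.

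The members are all peaks that overlap 1 of 2 windows on the mm9 build, chr9:32220000-32360000 around Fli1 and chr6:133980000-134230000 around Etv6. They number 79 of the 134473 deposited peaks, 25 at Fli1 and 54 at Etv6. The genes were taken to lie at about 32229800 to 32349200 and 133985700 to 134220200. Of the 79 peaks, 71 overlapped these ranges, 21 at Fli1 and 50 at Etv6. Exons, introns and untranslated regions were not assigned, since no mm9 annotation was used here. The positions of Vwf, Gata1 and the other gate genes were not analysed here either, so the cell type labels were not checked against their markers. Total counts ran from 4628997 to 7753538 per library. Signal is given as CPM, a peak's count relative to its library's total after TMM scaling, which corrects for differences in composition.

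No peak of either gene passed edgeR's quasi-likelihood test of a difference between the gates (threshold: adjusted p of 0.05). A filter on low counts kept 22 of 25 peaks at Fli1 and 47 of 54 at Etv6, and of these 69 peaks 0 were called. Over all 97040 tested peaks, 0.0144% were called, with 0.0134% higher in the Vwf+Gata1+ gate and 0.00103% lower. The lowest adjusted p in edgeR was 0.538 at Fli1 and 0.662 at Etv6. At an unadjusted p under 0.05 in edgeR lay 5 of the 69, which is 7.25%, against 6.72% of all tested peaks. Of these 5, 4 were higher in Vwf+Gata1+ cells, where the share of all peaks was 3.65%, and 1 was lower, where it was 3.07%. DESeq2, which gave an adjusted p for 19 Fli1 and 41 Etv6 peaks, also called 0 at both genes, and called 0.0137% of all peaks. It gave no adjusted p for chr9:32301532-32301776, the Fli1 peak with the lowest p in edgeR, so it could not call that peak. At an unadjusted p under 0.05 DESeq2 had 1 peak of each gene, and 3.47% of all peaks. limma-voom called 0 as well, and 0.00103% of all peaks. Its unadjusted p was under 0.05 at 1 Fli1 and 4 Etv6 peaks, and at 7.46% of all peaks. With so few calls over all peaks, a count of 0 among 69 is near the background. With the replicate number as a block, edgeR again called 0 of the 69, while it called 0.542% of all tested peaks. Both genes were highly accessible in both gates, with their strongest and widest peak at the end where the gene starts.

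The strongest peak of either gene spans the lower end of the Etv6 range, taken here as the start. The sequence before the start of Etv6 is therefore shown. It is the 250 bases before the RefSeq start (GRCm38.p6, chr6:134035450-134035699, plus strand), printed 5′ to 3′ with each CG in capitals.

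Etv6 promoter: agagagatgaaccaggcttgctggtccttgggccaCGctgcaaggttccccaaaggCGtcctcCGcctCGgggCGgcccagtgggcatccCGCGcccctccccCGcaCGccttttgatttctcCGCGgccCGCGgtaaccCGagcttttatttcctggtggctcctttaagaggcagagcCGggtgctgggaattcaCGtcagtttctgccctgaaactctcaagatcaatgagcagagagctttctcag

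The stretch holds 16 CG pairs and 60.4% G and C. Of the 32851 promoters in the RefSeq table, 74.6% held fewer CG pairs in the same 250 bases. The median promoter had 6 CG pairs and 52.4% G and C.

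Motifs were searched on both strands from 250 bases before to 50 after the start. GGAAG, the GGAA core of ETS factors with a G after it, had 2 matches, which do not overlap and both lie just after the start. GGAA alone was not searched, and it does occur in the 250 bases printed above. They are shown with their letters in capitals, from base 13 to base 39 after the start (GRCm38.p6, chr6:134035712-134035738, plus strand).

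Etv6 ETS cores: gtttctctCTTCCaGGAAGgaaaacat

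The first match is on the reverse strand and the second on the forward strand. GGAAG was present in 71.4% of all promoters of that length, so a match is common. AGATAA, a motif of GATA factors, had 0 matches here and is present in 11.2% of promoters. TGTGGT, read by RUNX factors, had 0 matches and is present in 16.8%. CANNTG, the E-box of TAL1 and its partners, had 0 matches and is present in 72.3%. A match is a description of letters and not a binding site, and a missing match says only that these letters are not in this window. Fli1 had no entry in the promoter table. The peaks are on mm9 and the promoter on GRCm38.p6, and coordinates were not converted between them.

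At Fli1, accessibility was concentrated at the higher end of the gene, where mouse Fli1 starts, and in a group of peaks 20 to 40 kb into the gene. The peak at chr9:32347682-32349428 spans the higher end of the Fli1 range and is the widest of its 25 peaks at 1747 bp. Its signal was 45.7, 45.9, 54.7 and 44.5 CPM in replicates 1 to 4 of Vwf+Gata1+ cells. Among Vwf-Gata1+ cells the values were 43.8, 42.1, 42.8 and 41.1 CPM. The lowest Vwf+Gata1+ library therefore lay above the highest Vwf-Gata1+ library, by a small margin.

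The group means at this peak were 47.7 ± 4.69 and 42.5 ± 1.12 CPM (SD, n = 4 each). The log2 fold change, Vwf+Gata1+ minus Vwf-Gata1+ as throughout, was 0.16 ± 0.09 (SE), with a 95% interval from -0.023 to 0.34 (edgeR adjusted p = 0.791). Replicate 3 of Vwf+Gata1+ cells stood highest, and without it the log2 fold change was 0.090. Of the summed Fli1 signal the peak held 22.0% ± 1.56 in the Vwf+Gata1+ gate and 20.4% ± 0.451 in the other (SD, n = 4 each). Its mean signal was at or above that of 97.1% of all peaks.

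**Figure D1:**
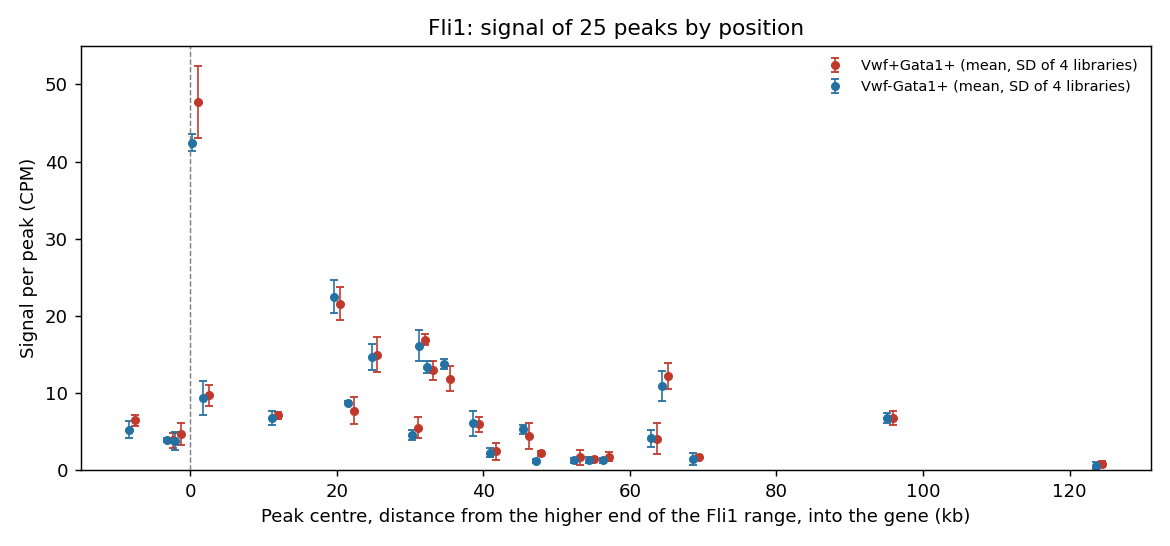
Signal of the 25 Fli1 peaks (y axis, CPM, mean and SD of 4 libraries) against the distance of the peak's centre from the higher end of the gene (x axis, kb into the gene; negative values lie outside it), with Vwf+Gata1+ in red and Vwf-Gata1+ in blue. The start peak stands highest at 47.7 and 42.5 CPM, and the next strongest peaks lie between 20 and 40 kb.

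The 8 peaks from 20 to 40 kb into Fli1 (chr9:32309995-32329581) held 46.5% of the gene's signal, more than the 29.0% in the 3 peaks of the first 20 kb. Their summed means were 97.5 CPM in Vwf+Gata1+ libraries and 99.9 CPM in Vwf-Gata1+ ones, and 3 of the 8 had a log2 fold change above 0. Intronic enhancers are known for many blood genes, but which of these peaks act on Fli1 was not tested.

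The strongest of this group, at chr9:32328675-32329581, had 21.7, 23.9, 21.9 and 18.9 CPM in Vwf+Gata1+ cells. Its Vwf-Gata1+ values were 19.7, 23.9, 24.4 and 22.0 CPM. The groups overlapped almost fully, with a log2 fold change that came to -0.06 ± 0.11 (SE; edgeR adjusted p = 0.966) and a 95% interval from -0.29 to 0.17.

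The peak at chr9:32317250-32317841 had 16.9, 17.9, 16.6 and 16.2 CPM in Vwf+Gata1+ cells. Its values in Vwf-Gata1+ cells were 15.6, 13.7, 18.6 and 16.8 CPM, for a log2 fold change that came to 0.07 ± 0.13 (SE; edgeR adjusted p = 0.960). Here too the groups overlapped, and the 8 libraries varied by 8.96% (coefficient of variation), where counting error alone gives 9.83%.

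A neighbour at chr9:32316263-32316606 was narrow, 344 bp, and had one of the highest densities of Fli1 at 38.2 CPM per kb. It ran from 12.0 to 14.8 CPM in Vwf+Gata1+ cells and from 12.6 to 14.6 CPM in Vwf-Gata1+ cells. The peak at chr9:32323495-32324593 ran from 12.3 to 17.4 CPM and from 12.4 to 16.3 CPM. Both had log2 fold changes close to 0, -0.06 ± 0.14 and 0.04 ± 0.14 (SE). Their 95% intervals were -0.34 to 0.21 and -0.23 to 0.32.

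The largest difference at Fli1 was at a weak peak. The peak at chr9:32301532-32301776, 47.5 kb into the gene, had 2.41, 2.36, 1.77 and 2.22 CPM in Vwf+Gata1+ cells. The other gate gave 1.13, 1.18, 1.5 and 0.845 CPM. The groups did not overlap, and the log2 fold change was 0.94 ± 0.34 (SE; unadjusted p = 0.00866, edgeR adjusted p = 0.538). This rests on few reads, 8 to 19 a library in the Vwf+Gata1+ gate and 6 to 9 in the other. With each library left out in turn, the log2 fold change ran from 0.81 to 1.06.

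The largest log2 fold changes below 0 were small and did not pass the test. They were -0.22 ± 0.23 (SE) at chr9:32303083-32303666, -0.21 ± 0.14 at chr9:32313765-32314429 and -0.20 ± 0.17 at chr9:32327081-32327496. At the first, leaving out 1 library moved the value between -0.48 (without Vwf+Gata1+ replicate 4) and -0.062 (without Vwf+Gata1+ replicate 3). The range was -0.30 to -0.15 at the second and -0.34 to -0.11 at the third. The peak at 32327081 was nearly constant in Vwf-Gata1+ cells, with 8.77 ± 0.183 CPM, and varied more in Vwf+Gata1+ cells, with 7.73 ± 1.78 CPM (SD, n = 4 each). Beyond the higher end of the gene lay 3 peaks, of which chr9:32356726-32357500 had 6.47 ± 0.729 CPM in Vwf+Gata1+ and 5.27 ± 1.12 CPM in Vwf-Gata1+ libraries (SD, n = 4 each). Its log2 fold change was 0.28 ± 0.20 (SE; edgeR adjusted p = 0.842).

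A narrow peak beside the start peak, chr9:32346874-32347116, is outside the naming rule and was picked with its values known. Its density was the highest of the gene, 39.4 CPM per kb, with 9.74 ± 1.36 and 9.42 ± 2.2 CPM in the 2 gates (SD, n = 4 each). The lower end of the gene was sparse. No peak lay in the 27.9 kb between 32225306 and 32253234, and the peak nearest to the lower end, chr9:32225052-32225306, had 0.689 CPM on average and was not tested.

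At Etv6, accessibility was spread over the whole gene, with the start peak and a peak 150.9 kb inside it as the strongest features. The peak at chr6:133984705-133986391 spans the lower end of the Etv6 range, taken as the start, and is the gene's widest at 1687 bp. Its signal was 71.7, 77.4, 84.5 and 76.7 CPM in replicates 1 to 4 of Vwf+Gata1+ cells. The Vwf-Gata1+ libraries had 72.5, 77.3, 81.5 and 80.3 CPM. The Vwf-Gata1+ values all lay within the Vwf+Gata1+ range. In bulk libraries, more cells with open chromatin and more open chromatin per cell cannot be told apart.

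The means of this peak were 77.6 ± 5.29 and 77.9 ± 4.01 CPM (SD, n = 4 each), and the log2 fold change was -0.0085 ± 0.08 (SE; edgeR adjusted p = 0.994). Its 95% interval, -0.18 to 0.16, was among the narrowest at either gene. The promoter printed above is the RefSeq one of this gene. The mean signal was at or above that of 99.5% of all peaks. Per length, 46.1 CPM per kb at the Etv6 start peak stood above 25.8 CPM per kb at the Fli1 start peak.

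**Figure D2:**
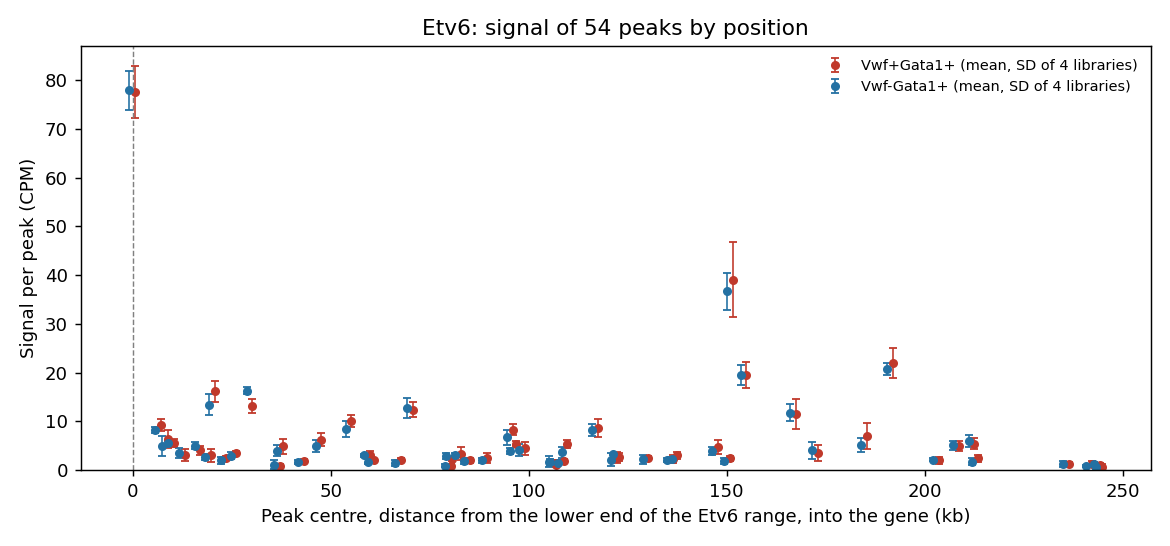
Signal of the 54 Etv6 peaks (y axis, CPM, mean and SD of 4 libraries) against the distance of the peak's centre from the lower end of the gene (x axis, kb into the gene), with Vwf+Gata1+ in red and Vwf-Gata1+ in blue. The start peak has 77.6 and 77.9 CPM, and the second highest peak, 150.9 kb into the gene, has 39.1 and 36.7 CPM.

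The second strongest peak, chr6:134136192-134136959, was denser than the start peak, with 49.3 CPM per kb, a density at or above that of 99.1% of all peaks. It had 31.1, 48.8, 41.6 and 35.0 CPM in Vwf+Gata1+ cells. Among Vwf-Gata1+ cells the values were 32.0, 41.5, 36.4 and 36.8 CPM. In both gates replicate 1 was lowest and replicate 2 highest.

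The log2 fold change of this peak was 0.08 ± 0.11 (SE; edgeR adjusted p = 0.945). Its coefficient of variation over the 8 libraries was 15.4%, against 6.53% from counting error alone. This was the highest ratio of the 2 among the 79 members, and 3 other Etv6 peaks and 0 Fli1 peaks exceeded a ratio of 2. Over all 79 members, with the 10 untested ones included, the median ratio was 1.21, against 1.19 over all tested peaks.

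Its neighbour at chr6:134139667-134140223 had 19.3, 17.0, 23.2 and 18.7 CPM in Vwf+Gata1+ libraries and 22.3, 17.9, 18.6 and 19.3 CPM in Vwf-Gata1+ ones. The log2 fold change was -0.012 ± 0.12 (SE; edgeR adjusted p = 0.994). The peaks from 140 to 160 kb into the gene, 4 in all, held 17.3% of the Etv6 signal, second to the 21.1% of the start peak.

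Near the far end of the gene the peak at chr6:134176318-134177540, 1223 bp wide, had 17.6, 22.3, 24.6 and 23.3 CPM in Vwf+Gata1+ cells. Its Vwf-Gata1+ values were 19.2, 21.0, 20.8 and 22.3 CPM, so the groups overlapped (log2 fold change 0.065 ± 0.12, SE; edgeR adjusted p = 0.961). Replicate 1 was lowest in both gates here as well.

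The peak at chr6:134005304-134005932, 19.9 kb into the gene, had 16.4, 13.8, 18.8 and 15.7 CPM in Vwf+Gata1+ cells. Its values in Vwf-Gata1+ cells were 11.3, 14.0, 12.2 and 16.2 CPM. Replicate 4 of Vwf-Gata1+ cells lay among the Vwf+Gata1+ libraries, and the log2 fold change was 0.26 ± 0.14 (SE; edgeR adjusted p = 0.771).

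**Figure D3:**
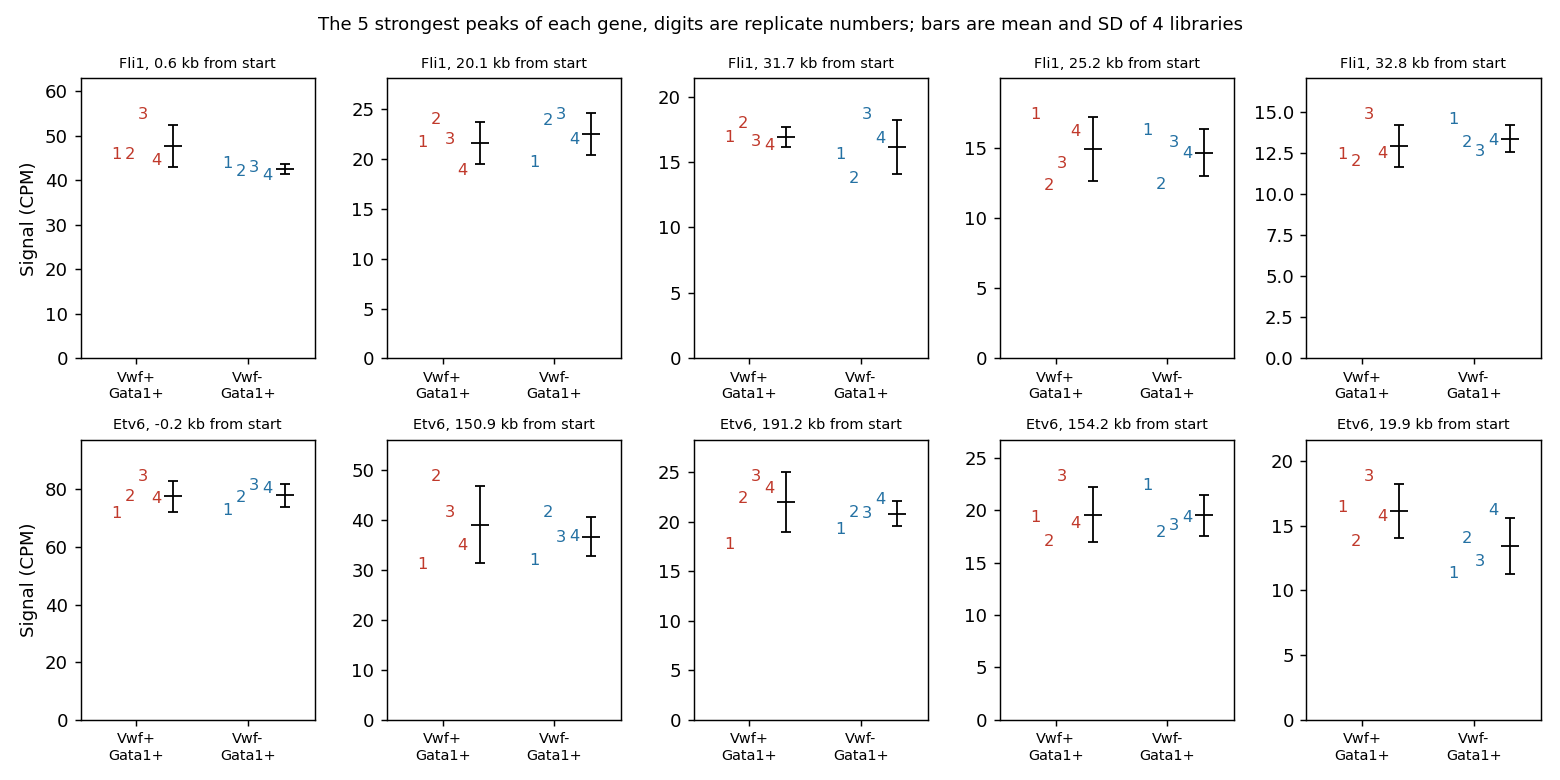
Signal (y axis, CPM, from 0) of the 5 strongest peaks of Fli1 (top) and Etv6 (bottom) in each library, by gate, with digits for the replicate number and black bars for the mean and SD of 4 libraries. The gates overlap in 9 of the 10 panels, and at the Fli1 start peak replicate 3 of Vwf+Gata1+ cells stands above the others at 54.7 CPM.

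The smallest p-values at Etv6 were found at peaks inside the gene and not at its start, and none passed the adjusted threshold. The peak at chr6:134094494-134095029 had 6.60, 4.71, 5.09 and 5.0 CPM in Vwf+Gata1+ cells. The other gate gave 5.14, 2.66, 3.57 and 3.24 CPM. Only replicate 1 of Vwf-Gata1+ cells reached the range of the other group. The log2 fold change was 0.55 ± 0.23 (SE; unadjusted p = 0.0218, edgeR adjusted p = 0.662).

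At chr6:134081664-134081974 the groups did not overlap, with 5.20, 5.08, 6.20 and 5.13 CPM in Vwf+Gata1+ cells. The Vwf-Gata1+ libraries had 4.52, 3.54, 4.32 and 3.24 CPM. The log2 fold change was 0.46 ± 0.21 (SE; unadjusted p = 0.0403, edgeR adjusted p = 0.729).

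At chr6:134170165-134170730 replicate 1 stood highest in both gates. The values were 10.8, 6.53, 4.87 and 5.97 CPM in Vwf+Gata1+ libraries and 7.28, 4.13, 4.70 and 4.51 CPM in Vwf-Gata1+ ones. The fold change was 0.47 ± 0.22 in log2 (SE; edgeR adjusted p = 0.730). Leaving out the Vwf+Gata1+ replicate 1 gave 0.15, leaving out the Vwf-Gata1+ replicate 1 gave 0.71, and leaving out both gave 0.39. With the replicate number as a block it was 0.46.

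The 6 peaks from 80 to 100 kb into Etv6, with 134081664 among them, all had log2 fold changes above 0, and their summed means were 26.2 and 21.7 CPM. This block of the gene was singled out with its values known.

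In the other direction, the peak at chr6:134014876-134015521, 29.5 kb into the gene, had 14.5, 12.7, 11.5 and 14.0 CPM in Vwf+Gata1+ cells. The Vwf-Gata1+ libraries had 16.8, 16.2, 16.9 and 15.4 CPM. The groups did not overlap, and the log2 fold change was -0.29 ± 0.13 (SE; unadjusted p = 0.0301, edgeR adjusted p = 0.70).

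Weaker peaks with log2 fold changes below 0 were chr6:134001965-134002180, at -0.32 ± 0.22 (SE), and chr6:134065434-134065860, at -0.38 ± 0.28. Their groups overlapped, with 4.09 ± 0.901 against 5.03 ± 0.704 CPM and 2.30 ± 0.458 against 2.92 ± 0.628 CPM (SD, n = 4 each).

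The other 57 peaks, 14 at Fli1 and 43 at Etv6, had mean signals from 0.597 to 12.6 CPM. Of these, 48 were tested, and in all 48 the groups overlapped. Their log2 fold changes ran from -0.11 to 0.30 at Fli1 and from -0.26 to 0.47 at Etv6, with a lowest unadjusted p of 0.113. The 10 untested members had between 0.597 and 1.53 CPM, and 4 of them lay past the far end of Etv6, after the gene's longest gap of 22.6 kb.

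Taking all tested members, 45 of 69 had a log2 fold change above 0, or 65.2%, where 51.6% of all tested peaks did. The count was 14 of 22 at Fli1 and 31 of 47 at Etv6. The median log2 fold change was 0.050 at Fli1 and 0.15 at Etv6, beside 0.0083 over all tested peaks. In the windows of the same length directly before and after, it was 0.033 and 0.057 for Fli1. For Etv6 it was 0.071 before and -0.066 after. Neighbouring peaks share libraries and are not independent, so these counts are a description.

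Separation of the groups was found at 2 peaks of Fli1 and 2 of Etv6, which is 5.80% of the tested members, against 3.87% of all tested peaks. Of these 4 peaks, 3 were higher in Vwf+Gata1+ cells (1.87% of all tested peaks) and 1 was lower (2.0%). For 64 of the 69 the 95% interval excluded a 2-fold change either way, 21 at Fli1 and 43 at Etv6, and for 85.6% of all tested peaks. For the remaining 5 members the interval reached past 2-fold.

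**Figure D4:**
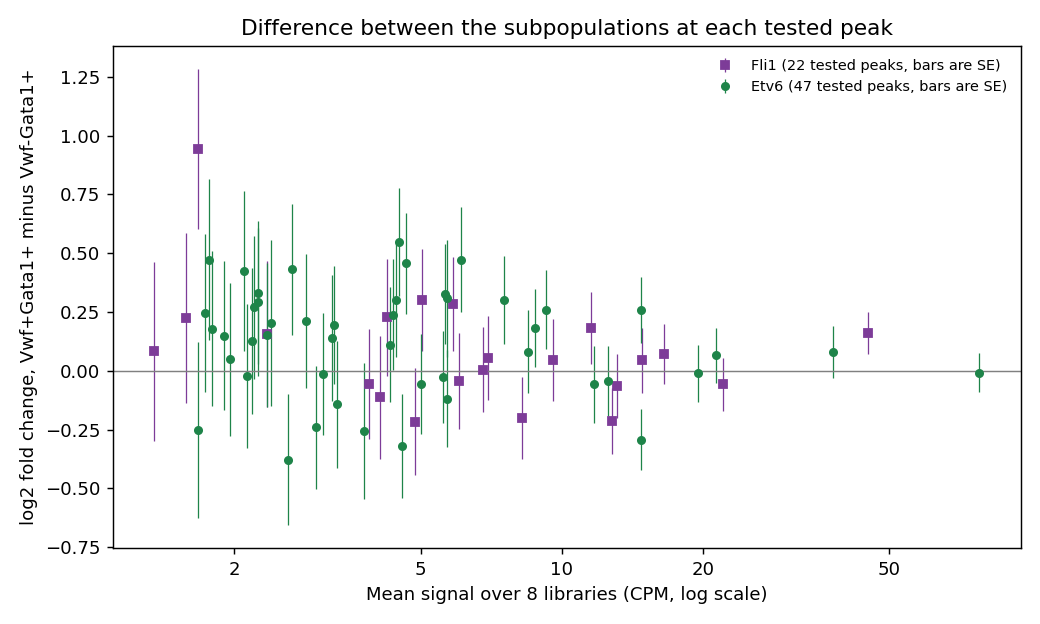
Log2 fold change, Vwf+Gata1+ minus Vwf-Gata1+, with its SE (y axis) against mean signal over 8 libraries (x axis, CPM, log scale) for the 22 tested Fli1 peaks (squares) and 47 tested Etv6 peaks (circles). Values scatter widely at weak peaks, up to 0.94 at Fli1, and lie close to 0 at the strongest peaks.

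Summed over all its peaks, Fli1 had 218, 212, 225 and 211 CPM in replicates 1 to 4 of Vwf+Gata1+ cells. Among Vwf-Gata1+ cells the values were 219, 200, 209 and 204 CPM. The groups overlapped, with means of 217 ± 6.6 and 208 ± 7.93 CPM (SD, n = 4 each), a ratio of 1.04.

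Etv6 had 385, 379, 394 and 354 CPM in Vwf+Gata1+ libraries and 391, 345, 351 and 352 CPM in Vwf-Gata1+ ones. Replicate 1 of Vwf-Gata1+ cells lay with the Vwf+Gata1+ libraries. The means were 378 ± 17.5 and 360 ± 20.6 CPM (SD, n = 4 each), a ratio of 1.05. These sums are given without a test, since the members were chosen as a list.

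**Figure D5:**
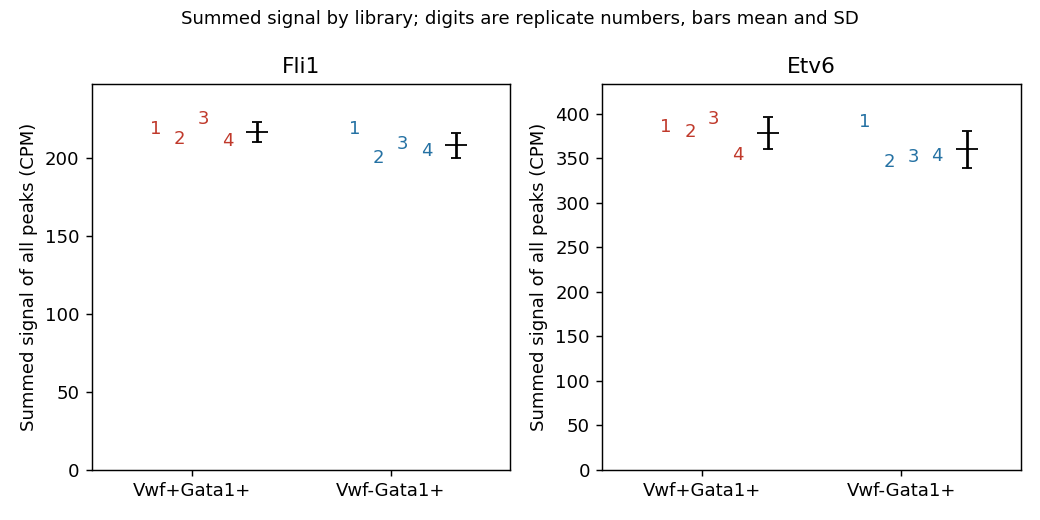
Summed signal of all peaks of Fli1 (left) and Etv6 (right) in each library (y axis, CPM, from 0), by gate, with digits for the replicate number and bars for the mean and SD of 4 libraries. The gates overlap at both genes, with means of 217 and 208 CPM at Fli1 and 378 and 360 CPM at Etv6.

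Away from the start peak, the rest of Etv6 summed to 314, 302, 310 and 277 CPM in Vwf+Gata1+ cells. The sums in Vwf-Gata1+ cells were 318, 268, 270 and 272 CPM. The highest of all 8 was thus a Vwf-Gata1+ library, replicate 1, while the other 3 of its gate were the lowest. The share of Etv6 signal in the start peak was 18.6% in both replicate 1 libraries and ran from 20.4% to 23.2% in the other 6.

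Replicate 1 libraries were the highest of all 8 at 27 of the 54 Etv6 peaks, 15 for the Vwf+Gata1+ and 12 for the Vwf-Gata1+ library. Over all peaks these libraries were highest at 11.2% and 13.8%. Vwf+Gata1+ replicate 3, with the smallest total, 4628997, was highest at 13 Etv6 peaks and at 16.1% of all peaks. At Fli1 the replicate 1 libraries were highest at 6 and 2 of 25 peaks, and Vwf+Gata1+ replicate 3 at 6. The replicate 1 libraries had the largest totals, 7753538 and 7670844. They also had the lowest share of counts in the strongest 1% of all peaks, 10.8% and 10.2%, where the other 6 had 11.1% to 12.0%. The part of depth and of this flatter spread of counts in the Etv6 values was not tested. Without both replicate 1 libraries, an alternative added after seeing the data, 0 members were called. The summed log2 ratio was then 0.0996 at Etv6 and 0.075 at Fli1, against 0.071 and 0.058 with all libraries.

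Set side by side, the genes were alike in how densely they were covered. Peaks covered 9.46% of the Fli1 window and 9.42% of the Etv6 window, and the signal was 1.52 and 1.48 CPM per kb of window. Per kb of peak it was 16.0 and 15.7 CPM, beside 13.9 CPM over all peaks. They differed in layout, with 17.9 peaks per 100 kb at Fli1 and 21.6 at Etv6, and median widths of 410 and 318 bp. The 5 strongest peaks held 52.6% of the signal at Fli1, with its 25 peaks, and 46.4% at Etv6, with its 54. These shares depend on the number of peaks, and the strongest peak alone held 21.2% and 21.1%.

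Both genes held more signal than the windows beside them. The windows of 140 kb before and after that of Fli1 held 23 and 18 peaks with 128 and 145 CPM, against 25 peaks and 212 CPM in its own. In GRCm38.p6 the next protein-coding gene above Fli1 is Ets1, another ETS factor, and the next below is Kcnj1, a potassium channel gene. The windows of 250 kb before and after that of Etv6 held 19 and 27 peaks with 42.4 and 123 CPM, against 54 peaks and 369 CPM. Of 13903 windows of 140 kb along the genome with a peak, 94.1% held fewer peaks than Fli1 and 91.9% less signal. Of 8723 windows of 250 kb, 99.4% held fewer peaks than Etv6 and 93.8% less signal. The windows were placed around the genes and the tiled ones were not, so these shares are a description.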

How the data were processed

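The authors deposited 1 table of raw counts per peak and library, with no normalization. The submitters' processing notes name the mm9 build and, as tools, MACS2, Bowtie2, Picard, SAMtools, FastQC and Trim Galore. Their roles, how reads were counted, shifted or deduplicated, and how peaks were merged are not given in the sources used here. All 8 count columns were used. Peaks kept by edgeR's filterByExpr (minimum count 10, minimum total 15) numbered 97040, or 72.2% of peaks with 96.3% of counts. They were fitted together with TMM scaling and edgeR's robust quasi-likelihood test, tested on simulated data, and p-values were adjusted by Benjamini-Hochberg over all of them. The simulated counts were drawn independently for each library, so variation shared by same-numbered libraries was not part of that test. Standard errors (SE) are the absolute log2 fold change divided by the root of F. Intervals are at 95% and not adjusted for the number of tests. Counts of libraries within a group differed by more than sampling noise (chi-square per degree of freedom 1.29 to 1.94).

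The rule names, per gene, the peak at the gene's start (for Fli1, whose strand is from general knowledge and no table, the peaks at both ends), the 5 strongest, the widest and up to 3 with the lowest p in each direction. Positions are as in the table. Members, lists and motifs were chosen with earlier results of these data known. Sequences are from RefSeq (GRCm38.p6). The fits used edgeR 4.0.16, with DESeq2 1.42.0 and limma 3.58.1 as alternatives, in R 4.3.3. Figures were drawn with matplotlib 3.10.9 in Python 3.11.15.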

Additional observations from a re-analysis of the deposited data

Results flagged for a closer look

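Of 48 groups of 4 libraries examined (the summed signal and the named peaks, by gate), 3 held a library whose gap to the others was large for the group's range. Chance gives about 1 in 20, or 5%, and here it was 6.25%. The summed Etv6 signal in replicate 1 of Vwf-Gata1+ cells was 391 CPM, while the other libraries of that gate ran from 345 to 352 CPM. At the Fli1 start peak (chr9:32347682-32349428), replicate 3 of Vwf+Gata1+ cells had 54.7 CPM, while the others ran from 44.5 to 45.9 CPM. At the Etv6 peak chr6:134081664-134081974, replicate 3 of Vwf+Gata1+ cells had 6.20 CPM, while the others ran from 5.08 to 5.20 CPM.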

How the results depend on the processing

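No peak of Fli1 or Etv6 was called in any of the 17 other fits: RLE or total count scaling, no filter, a minimum of 1 CPM in 4 libraries, limma-voom with quality weights, DESeq2, dispersions without robust estimation, the replicate block, each library left out in turn, and both replicate 1 libraries left out. The same held for the peaks within the gene ranges alone. The lowest adjusted p in these fits was 0.258 at Fli1 and 0.295 at Etv6, both with the replicate number as a block, where 0.542% of all peaks were called. The other 16 fits called between 0.00103% and 0.0758% of all peaks, so that 0 calls among the members is near the background. Peaks at an unadjusted p under 0.05 numbered 1 to 2 at Fli1 and 1 to 7 at Etv6, and the share of all peaks ran from 3.47% to 10.3%. The ends of these ranges come from different fits. Without Vwf-Gata1+ replicate 1 it was 7 of 47 Etv6 peaks, against 6.81% of all peaks. Without Vwf+Gata1+ replicate 1 it was 1 of 49, against 7.95%. With the replicate block it was 5 of 47 at Etv6 and 2 of 22 at Fli1, against 10.3%. The summed log2 ratio was computed for the other scalings, the 1 CPM minimum, the left-out libraries and the gene ranges alone. In these it stayed between 0.034 and 0.082 at Fli1 and between 0.045 and 0.11 at Etv6. The median log2 fold change stayed between 0.028 and 0.082 at Fli1 and between 0.075 and 0.19 at Etv6. Of 357 values of named peaks, 344 kept their direction and 13, at 6 peaks near 0, changed sign. Leaving out 1 library gave -0.054 to 0.025 at the Etv6 start peak and, at Etv6, -0.045 to 0.18 at 134136192 and -0.094 to 0.063 at 134139667. At Fli1 it gave -0.0018 to 0.14 at 32317250, -0.046 to 0.12 at 32323495 and -0.12 to 0.00039 at 32328675. Without both replicate 1 libraries 134139667 was at 0.064. The cause was not tested.

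The replicate number as a block called 0 members. No label says that a number pairs samples, and same-numbered libraries deviated together with correlations of 0.301 (replicate 1), 0.163 (replicate 2), 0.074 (replicate 3) and 0.0102 (replicate 4). Their own number was the best match for 5 of 8 libraries, as a hint in the data only. On 1 strand only, GGAAG had 1 match in the Etv6 promoter. Depth limits the weak peaks most.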

Other observations

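Some peaks elsewhere in the genome followed the start peaks across the 8 libraries. For each gene the 3 tested peaks on other chromosomes with the highest Pearson correlation of log2 CPM to its start peak were taken. For Fli1 the closest was chr11:72282674-72283171, at r = 0.991, followed by chr15:96304953-96305630 at 0.974 and chr11:62488995-62489818 at 0.973. For Etv6 they were chr1:42907573-42908628 at 0.989, chr10:80707189-80707883 at 0.988 and chr11:82153260-82154835 at 0.986. With 97040 peaks and 8 libraries, high values are common: 260 tested peaks had r over 0.9 with the Fli1 start peak and 375 with that of Etv6. These peaks were not assigned to genes, and the correlations share libraries and depth.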
